A study of Mus musculus with 9 samples.

Results

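The 4 connexin genes examined here, *Gja1*, *Gja5*, *Gjc1* and *Gja4*, encode the gap junction proteins Cx43, Cx40, Cx45 and Cx37 of the heart and its vessels. They were chosen by name as the connexins of the developing heart, with the lower value of *Gja1* in homozygotes already known, and all 4 of 4 were found among the 14011 genes measured. RNA was sequenced from mouse hearts of mixed strain at embryonic day 10.5 in 9 libraries, each made from a pool of 6 hearts, with 3 libraries per genotype. Controls carried floxed *Ctcf* without a Cre driver (*Ctcf* fl/fl by the sample labels, *Ctcf* fl/+ by the methods of the study), heterozygotes were *Ctcf* fl/+; Nkx2.5-Cre and homozygotes were *Ctcf* fl/fl; Nkx2.5-Cre. All groups thus carried at least one floxed allele, and only heterozygotes and homozygotes carried the driver, so a comparison with controls includes the driver and the comparison of homozygotes with heterozygotes does not. *Ctcf* encodes a zinc finger protein that organizes chromatin loops, and Nkx2.5-Cre recombines in cardiac progenitors and their derivatives, mainly the myocardium, so that whole hearts also hold cells that were not targeted.

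A connexon is a ring of connexin subunits in the cell membrane, and the docking of connexons from neighboring cells forms a gap junction channel that passes ions and small molecules. Cx43 is the main connexin of the working ventricular and atrial myocardium, Cx40 is found in atrial and trabecular myocardium and in arterial endothelium, Cx45 is the connexin of the early heart tube and of slowly conducting tissue such as the atrioventricular canal, and Cx37 is largely a protein of endothelium. In the developing heart the chamber connexins Cx43 and Cx40 accompany fast conduction, and T-box and NK-2 factors are known to act on their genes.

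In the NCBIM37 build, *Gja1* (ENSMUSG00000050953) lies at chr10:56097106-56110225 on the plus strand, *Gja5* (ENSMUSG00000057123) at chr3:96708616-96881339 on the plus strand, *Gjc1* (ENSMUSG00000034520) at chr11:102660893-102681014 on the minus strand and *Gja4* (ENSMUSG00000050234) at chr4:126988665-126991283 on the minus strand. All are protein-coding genes, and the exons of their transcripts together cover 3105 bp in *Gja1*, 5746 bp in *Gja5*, 5003 bp in *Gjc1* and 1685 bp in *Gja4*. *Gja5* shares 165 exonic bp with *Gpr89* on the opposite strand, and reads from this stretch cannot be told apart, since the use of strand in the counting was not given in the sources used here. No transcript of another gene shared 95% or more of its bases with a member over 50% or more of the length, and the longest match was between *Gja1* and *Gja6*, with 76.0% identity over 797 bp.

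The proximal promoters are shown because the 4 genes were lower together in homozygotes. RefSeq gave the 250 bases before the start site for 3 of the 4 genes, in the GRCm38.p6 build, at chr10:56377050-56377299 on the plus strand for *Gja1*, chr3:97032152-97032401 on the plus strand for *Gja5* and chr4:127314040-127314289 on the minus strand for *Gja4*. Capitals mark matches to the motifs searched on both strands.
Gja1: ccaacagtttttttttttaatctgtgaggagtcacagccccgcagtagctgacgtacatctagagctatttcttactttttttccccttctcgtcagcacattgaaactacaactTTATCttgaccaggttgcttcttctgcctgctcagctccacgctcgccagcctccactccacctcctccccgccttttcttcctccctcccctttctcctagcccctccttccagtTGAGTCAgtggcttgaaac
Gja5: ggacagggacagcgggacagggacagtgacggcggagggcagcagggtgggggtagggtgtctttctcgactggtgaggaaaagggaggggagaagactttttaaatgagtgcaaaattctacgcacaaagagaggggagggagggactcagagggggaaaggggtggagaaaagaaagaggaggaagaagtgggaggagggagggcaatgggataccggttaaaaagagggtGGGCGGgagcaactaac
Gja4: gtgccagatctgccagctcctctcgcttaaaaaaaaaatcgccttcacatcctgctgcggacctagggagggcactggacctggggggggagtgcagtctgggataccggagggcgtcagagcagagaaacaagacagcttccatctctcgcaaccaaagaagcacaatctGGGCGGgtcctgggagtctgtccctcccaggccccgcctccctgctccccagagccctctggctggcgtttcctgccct
The *Gja1* sequence held an AP-1 element (TGANTCA) from 19 to 13 bases before the start and a GATA element (GATAA, here on the other strand as TTATC) from 135 to 131 bases before it. *Gja5* and *Gja4* each held a GC box (GGGCGG), from 17 to 12 and from 79 to 74 bases before the start. Among 32851 RefSeq promoter sequences of this length, 6.75% held the AP-1 element, 22.6% the GATA element and 32.7% the GC box. The T-box half-site GGTGTG (16.3% of promoters), the NK-2 element TNAAGTG (10.1%), the CTCF core motif (7.17%) and the TATA box TATAAA (12.4%) had no match in these 3 windows. Other than the GC box of *Gja5* and *Gja4*, the sequences had no searched motif in common. GC content was 50% in *Gja1*, 56.4% in *Gja5* and 61.2% in *Gja4*.

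The authors deposited normalized values that equal the reads plus 0.5, divided by an effective library size (CPM), from which 100% of the read numbers could be recovered as whole numbers. Total reads ranged from 4294537 to 11629365 per library, 1 read was worth 0.0901 to 0.231 units of the value, and the members rested on 106 to 1882 reads in every library. *Ctcf* itself averaged 121 in controls (range 120.5 to 122), 97.3 in heterozygotes (94.2 to 101) and 81.4 in homozygotes (79.6 to 84.7), which is 80.1% and 67.0% of the control mean in these whole hearts. Libraries of a genotype are numbered 1 to 3 by their column names, and homozygote library 3, the deepest, was the lowest homozygote library for *Gja1*, *Gja5* and *Gjc1*.

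*Gja1* had the highest mean value of the 4 genes in every genotype and was at less than 50% of the control mean in homozygotes. Its values were 147, 162 and 160.4 in the control libraries, 185, 198 and 174 in heterozygotes and 81.2, 79.3 and 66.9 in homozygotes. The homozygote libraries lay below all others without overlap, and all heterozygote libraries lay above all controls. The means were 157 ± 8.11 in controls, 185 ± 11.9 in heterozygotes and 75.8 ± 7.78 in homozygotes (SD, n = 3), so that homozygotes held 48.4% of the control mean and 40.9% of the heterozygote mean. On the log2 scale the difference was -1.05 against controls and -1.29 against heterozygotes, each with a standard error of 0.08.

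*Gja5*, which encodes the fast-conducting Cx40, was the member with the lowest remaining share in homozygotes and the widest spread between libraries. Controls had 124, 116 and 167, heterozygotes 122, 158 and 145, and homozygotes 55.7, 46.6 and 33.1. Controls and heterozygotes overlapped over most of their range, and the highest homozygote library lay far below the lowest of the others. The means were 135 ± 27.3, 142 ± 18.3 and 45.2 ± 11.4 (SD, n = 3), or 33.3% of the control mean and 31.8% of the heterozygote mean in homozygotes. The log2 difference was -1.59 against controls and -1.67 against heterozygotes, with a standard error of 0.17 in each case.

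*Gjc1*, the gene of the early connexin Cx45, was lower in homozygotes by a smaller step. Its values were 62.8, 64.4 and 61.2 in controls, 68.6, 57.2 and 62.6 in heterozygotes and 50.8, 46.6 and 42.7 in homozygotes. The control libraries were close to each other, the heterozygote libraries lay on both sides of them, and the homozygote libraries were below both groups. The means were 62.8 ± 1.61, 62.8 ± 5.70 and 46.7 ± 4.01 (SD, n = 3), and homozygotes held 74.4% of either mean. The log2 difference was -0.43 against controls and -0.42 against heterozygotes (standard error 0.08).

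*Gja4*, the gene of endothelial Cx37, had the lowest values of the 4 and a difference of the same order as *Gjc1*. Controls had 30.7, 27.1 and 31.9, heterozygotes 29.4, 30.7 and 29.2, and homozygotes 24.9, 18.0 and 21.6. The homozygote libraries were again below both other groups, but the gap between the highest of them and the lowest control was small beside the spread within the groups. The means were 29.9 ± 2.51, 29.8 ± 0.837 and 21.5 ± 3.42 (SD, n = 3), with homozygotes at 71.9% of controls and 72.2% of heterozygotes. The log2 difference was -0.48 against controls and -0.47 against heterozygotes (standard error 0.11).

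**Figure D1:**
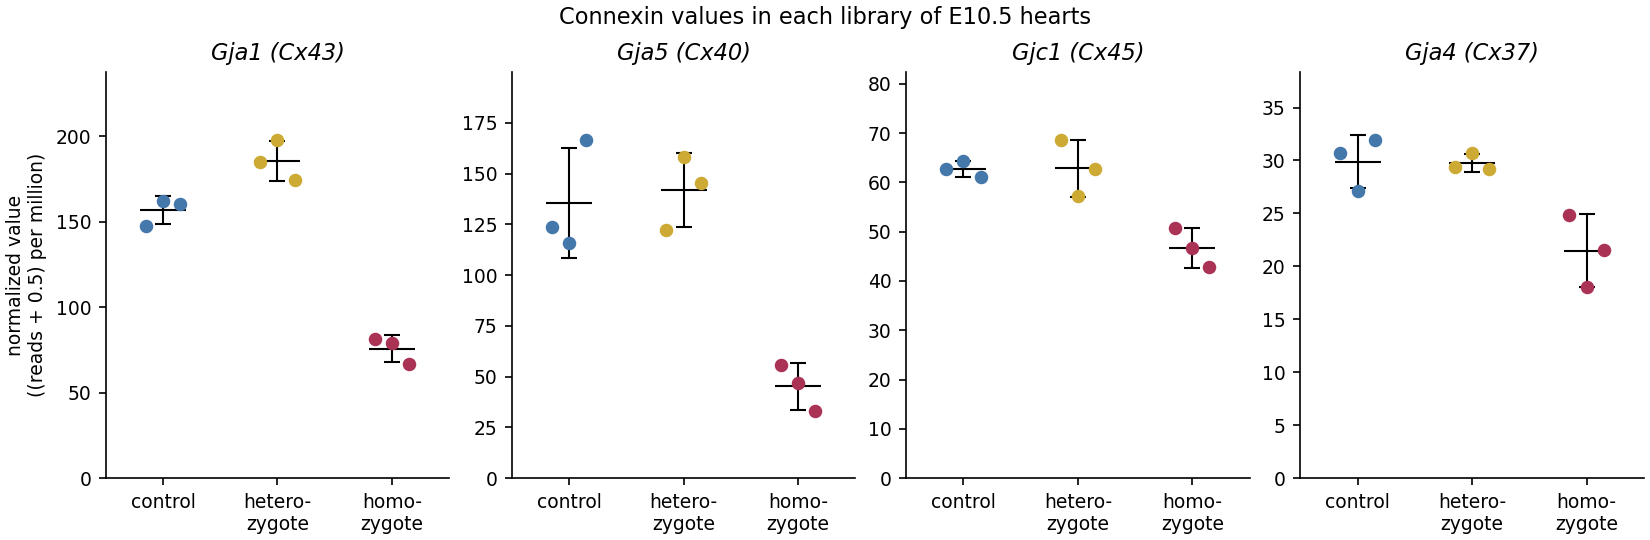
Normalized value (CPM scale, vertical axis) of each connexin gene in each library, with 1 point per library, a bar at the group mean and error bars of 1 SD (n = 3); each panel starts at 0 and has its own scale. The homozygote libraries lie below all control and heterozygote libraries in every panel, from 33.1 to 55.7 for *Gja5* against at least 116 elsewhere.

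The 2 comparisons with homozygotes share the same homozygote libraries, and the members were chosen with the first of them known, so these values are given as a description without a test. For scale, the fit across all genes (limma, adjusted p under 0.05) called 15.2% of the 14011 genes against controls, 8.03% lower and 7.19% higher, and 13.6% against heterozygotes, 6.7% lower and 6.87% higher. Homozygote libraries overlapped with no control library in all 4 genes, as they did in 16.5% of genes in the lower direction, and for heterozygotes in 15.5%. Of all genes, 1.07% had non-overlapping libraries and a homozygote mean at or below 50% of the control mean, and *Gja1* and *Gja5* were among them. Ordered by the log2 difference between homozygotes and controls, *Gja5* was the 28th lowest gene (0.200% of genes at or below it), *Gja1* the 117th (0.835%), *Gja4* the 908th (6.48%) and *Gjc1* the 1118th (7.98%). The members thus fell into a pair with a large and a pair with a moderate difference. Over all genes the difference ran with exonic length, from a median of 0.17 in the shortest of 10 length classes to -0.16 in the longest, and with this trend removed the members stood at -1.07 (*Gja1*), -1.53 (*Gja5*), -0.39 (*Gjc1*) and -0.55 (*Gja4*) against controls.

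**Figure D2:**
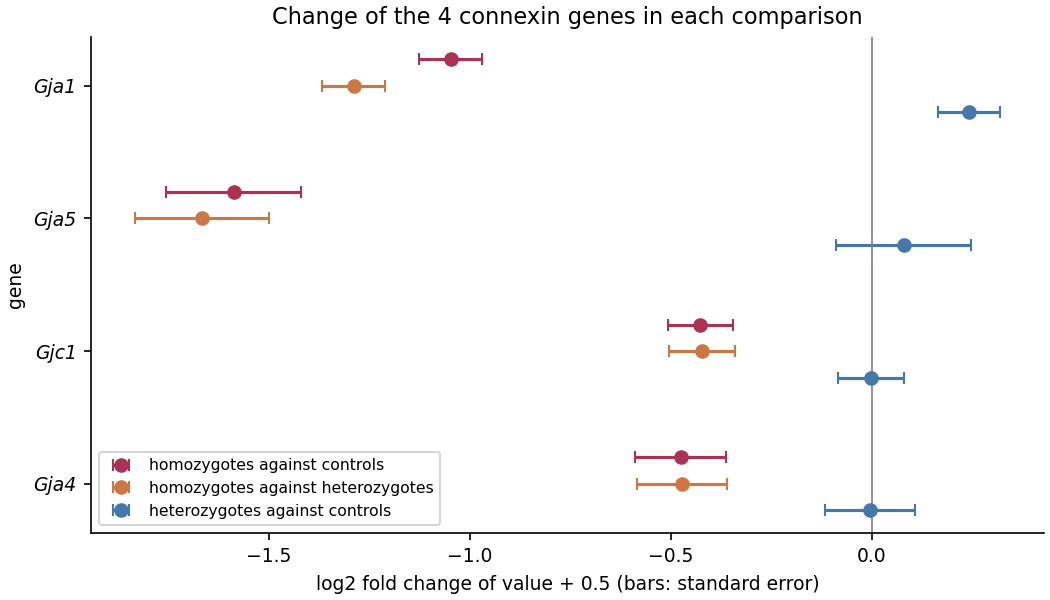
Log2 fold change of value + 0.5 (horizontal axis) of each connexin gene in the 3 comparisons, with bars of 1 standard error from the fit over 9 libraries. Both homozygote comparisons lie left of 0 for every gene and furthest for *Gja5* (-1.59 and -1.67), while heterozygotes against controls lie near 0 other than *Gja1* at 0.24.

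Heterozygotes were compared with controls to ask whether loss of one *Ctcf* allele moved the connexins, a comparison in which the members were tested. None of the 4 genes passed limma's threshold, in a comparison in which 0.143% of all genes (20) were called, 0.0928% higher and 0.05% lower, and 1 of the 4, *Gja1*, had an unadjusted p under 0.05, as did 7.37% of all genes. *Gja1* was higher in 3 of 3 heterozygote libraries than in any control, at 118% of the control mean, with a log2 difference of 0.24 (95% interval 0.07 to 0.41) and a limma adjusted p of 0.478, which ranged from 0.250 to 0.948 over the alternative settings. Its exact two-sided permutation p was 0.1, the smallest that 3 libraries against 3 can give, and 7.41% of all genes had heterozygote libraries wholly above the controls. *Gja5* differed by 0.08 (95% interval -0.28 to 0.44, limma adjusted p = 0.958). For *Gjc1* the difference was -0.00 (95% interval -0.18 to 0.17, limma adjusted p = 0.997) and for *Gja4* -0.00 (95% interval -0.25 to 0.24, limma adjusted p = 0.998). The intervals leave room for differences of up to 0.25 in either direction for *Gjc1* and *Gja4* and for larger ones in *Gja5*. edgeR's quasi-likelihood test, voom and DESeq2 on the recovered reads called none of the 4 in this comparison.

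Values were divided by the exonic length of each gene to compare levels between the members. Per kilobase of exon, controls averaged 50.5 for *Gja1*, 23.6 for *Gja5*, 17.7 for *Gja4* and 12.6 for *Gjc1*. Homozygotes averaged 24.4 for *Gja1*, 12.8 for *Gja4*, 9.34 for *Gjc1* and 7.86 for *Gja5*. *Gja1* stayed the most abundant connexin RNA in all 3 genotypes, and *Gja5* went from second place in controls to last place in homozygotes. With the length of the longest transcript instead, *Gja5* averaged 36.9 in controls and 12.3 in homozygotes and *Gjc1* 18.4 and 13.7, so that by the means *Gja5* was still second and last and the order of *Gjc1* and *Gja4* was exchanged. By this length *Gja5* was last in homozygote library 3 alone, at 9.02, and in library 1 it was 15.2 against 14.9 for *Gjc1* and 14.8 for *Gja4*.

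The summed level of the 4 genes per kilobase of exon was 99.8 to 112 in the control libraries, 111 to 121 in heterozygotes and 48.6 to 60.8 in homozygotes. *Gja1* made up 48.4% of this sum in controls (46.2 to 51.5%) and 45.0% in homozygotes (43.0 to 47.6%), so its share overlapped between controls and homozygotes, while in heterozygotes it was 52.1% (50.4 to 53.1%), above every homozygote library. *Gja5* made up 22.5% in controls (19.9 to 25.9%) and 14.3% in homozygotes (11.8 to 16.0%). *Gja4* made up 17.0% in controls (15.9 to 18.2%) and 23.5% in homozygotes (19.9 to 26.3%), and *Gjc1* 12.1% (10.9 to 12.7%) and 17.2% (16.7 to 17.6%). The mixture in homozygotes was thus smaller in sum, with a lower share of Cx40 RNA and higher shares of Cx37 and Cx45 RNA, although the values of the latter genes were themselves lower.

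**Figure D3:**
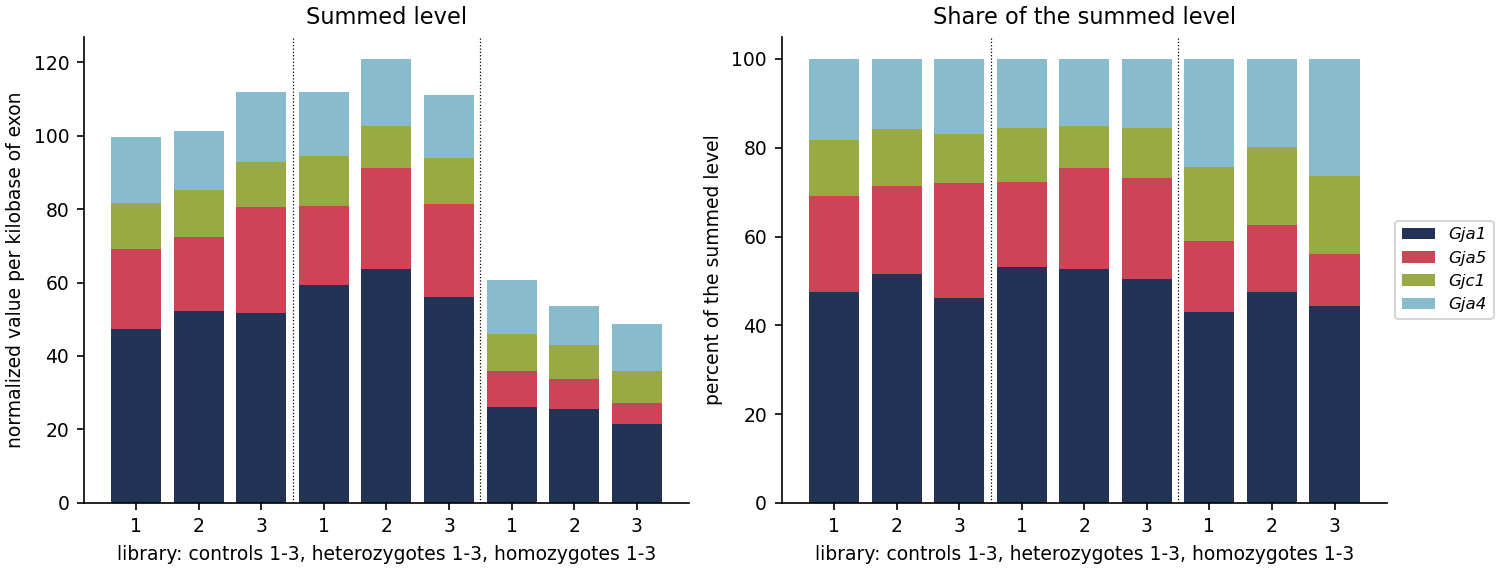
Summed normalized value per kilobase of exon of the 4 connexin genes in each library (left) and the percent of that sum held by each gene (right), with libraries 1 to 3 of controls, heterozygotes and homozygotes from left to right. The homozygote sums of 48.6 to 60.8 are below the control sums of 99.8 to 112, and the *Gja5* share is 11.8 to 16.0% in homozygotes against 19.9 to 25.9% in controls.

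The ratio of members within a library does not depend on how the libraries were scaled. The log2 ratio of the value of *Gja1* to that of *Gjc1* averaged 1.31 ± 0.08 in controls, 1.56 ± 0.20 in heterozygotes and 0.69 ± 0.06 in homozygotes (SD, n = 3). For *Gja5* over *Gjc1* it was 1.08 ± 0.31, 1.17 ± 0.32 and -0.08 ± 0.26, and the homozygote libraries lay below the others without overlap in both ratios. *Gja4* over *Gjc1* averaged -1.06 ± 0.16, -1.06 ± 0.16 and -1.11 ± 0.21, with overlapping libraries. The chamber connexins were thus lower relative to *Gjc1*, while *Gja4* relative to *Gjc1* overlapped between the genotypes.

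Of the other 19 connexin and pannexin genes listed, 3 were in the table, namely *Gja6*, *Panx1* and *Panx2*. None was called in any comparison by limma, edgeR, voom or DESeq2, and *Gja6* alone had an unadjusted p under 0.05 in the homozygote comparisons. *Gja6*, an X-linked connexin gene, had 0.989, 0.864 and 1.39 in controls and 1.70, 2.28 and 2.30 in homozygotes, from 5 to 25 reads per library, with a log2 difference of 0.72 (limma adjusted p = 0.134). *Panx1*, which encodes a channel protein of the plasma membrane, averaged 15.9 ± 0.278 in controls and 16.8 ± 2.68 in homozygotes (limma adjusted p = 0.776). *Panx2* averaged 6.41 ± 1.15 and 5.0 ± 0.787 (SD, n = 3, limma adjusted p = 0.266). *Gja6* was thus the one connexin gene measured beside the 4 members.

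Gap junctions sit beside adherens junctions and desmosomes in the intercalated disc, and the 22 genes listed for these partners were all measured. In homozygotes against controls 7 fell, 1 rose and 14 did not pass the test, where 8.03% of all genes fell and 7.19% rose, and the median log2 difference was -0.18 against -0.00 over all genes. With the trend with exonic length removed the list's median was -0.10, 4 genes fell and 0 rose, and the calls over all genes went from 1125 lower and 1008 higher to 716 lower (5.12%) and 804 higher (5.75%). The called genes with the largest changes were *Dsc2*, a desmosomal cadherin (-0.43, limma adjusted p = 0.0126), *Cav3*, the muscle caveolin (0.42, limma adjusted p = 0.0107), *Vcl*, which encodes vinculin (-0.40, limma adjusted p = 0.0150), and *Pkp2*, the desmosomal plakophilin (-0.35, limma adjusted p = 0.00160). *Tjp1*, which encodes the Cx43-binding scaffold ZO-1, had 211, 208 and 230.5 in controls and 177, 197 and 192 in homozygotes, a difference of -0.20 (limma adjusted p = 0.0359) whose adjusted p was over 0.05 in 9 of 20 alternatives. Against heterozygotes 8 fell and 0 rose (6.7% and 6.87% of all genes), with a median of -0.23, *Cav3* and *Tjp1* did not pass (limma adjusted p = 0.307 and 0.150), and in heterozygotes against controls 0 were called and 1 had an unadjusted p under 0.05, where 7.37% of all genes did. Calls in this list depended on single libraries, with 3 of 22 called against controls without control library 3 or without homozygote library 3, and 5 and 4 against heterozygotes without heterozygote library 3 or homozygote library 3. The calls over all genes fell with these omissions too, from 2133 to 1049 and 1267 against controls and from 1901 to 1223 and 1023 against heterozygotes. *Dsc2* and *Vcl* were not called without control library 3 or without homozygote library 3, and *Cav3* was not called once the trend with exonic length was removed.

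Among 18 transcription factors known to act on connexin genes in the heart, all measured, 4 fell and 1 rose in homozygotes against controls, where 8.03% of all genes fell and 7.19% rose, with a median of -0.11. *Nkx2-5*, the cardiac NK-2 factor, had 69.2, 81.2 and 75.8 in controls, 53.7, 58.8 and 58.5 in heterozygotes and 38.3, 36.8 and 41.4 in homozygotes. Its libraries were in 3 steps without overlap, and the log2 difference of homozygotes was -0.95 (limma adjusted p = 7.38e-06). Controls lacked the driver, so driver and *Ctcf* genotype cannot be told apart in comparisons of *Nkx2-5* with controls. Against heterozygotes, which carried the driver, *Nkx2-5* fell by 0.55 in homozygotes (limma adjusted p = 0.000764). *Hey2*, the Notch target of compact myocardium, fell by 0.74 (limma adjusted p = 2.20e-05), *Hopx*, a homeodomain-only cofactor, fell by 0.69 (limma adjusted p = 0.000218), and *Tbx20*, a T-box factor of the chambers, fell by 0.42 (limma adjusted p = 0.00303). These 4 genes were called under all 20 alternatives against controls, but against heterozygotes *Tbx20* did not pass (-0.22, limma adjusted p = 0.0697).

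The T-box activator *Tbx5* averaged 61.1 ± 5.75 in controls, 71.4 ± 4.26 in heterozygotes and 53.8 ± 6.07 in homozygotes (SD, n = 3). It did not pass the test against controls (-0.18, limma adjusted p = 0.206) and was lower in homozygotes than in heterozygotes (-0.41, limma adjusted p = 0.0116). The T-box repressor *Tbx2* (-0.10, limma adjusted p = 0.630) and the trabecular and conduction factor *Irx3* (-0.04, limma adjusted p = 0.896) did not pass against controls. *Tbx3*, the other T-box repressor of slowly conducting tissue, did not pass against controls (-0.32, limma adjusted p = 0.138) and fell by 0.45 against heterozygotes (limma adjusted p = 0.0445). Against heterozygotes 5 of the 18 fell and 1 rose (6.7% and 6.87% of all genes), with a median of -0.23. In heterozygotes against controls limma called 0 and DESeq2 1, and 4 of the 18 had an unadjusted p under 0.05, as did 7.37% of all genes.

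The 12 ion channel genes of impulse conduction were also measured in full, and 3 fell and 0 rose in homozygotes against controls (8.03% and 7.19% of all genes), with a median of -0.24, which was -0.21 with the length trend removed. *Cacna1h*, which encodes a T-type calcium channel, had 82.1, 88.6 and 104 in controls, 86.2, 92.3 and 102 in heterozygotes and 64.8, 64.4 and 41.9 in homozygotes. All homozygote libraries were below the others, and library 3 was the lowest, with a log2 difference over the group of -0.70 (limma adjusted p = 0.00568). The calcium channel gene *Cacna1d* also fell (-0.71, limma adjusted p = 0.00921), as did the potassium channel gene *Kcnj3* (-0.55, limma adjusted p = 0.0334). Against heterozygotes 5 fell and 0 rose (6.7% and 6.87% of all genes), with a median of -0.39, *Kcnj3* did not pass (limma adjusted p = 0.129), and in heterozygotes against controls limma called 0, 1 had an unadjusted p under 0.05 (7.37% of all genes) and the median was 0.19. *Kcnj3* was not called in 8 of 20 alternatives, including the omission of any one control library or of homozygote library 2 or 3, with adjusted p up to 0.140. Against heterozygotes 2 channel genes were called without heterozygote library 3 and 3 without homozygote library 3.

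**Figure D4:**
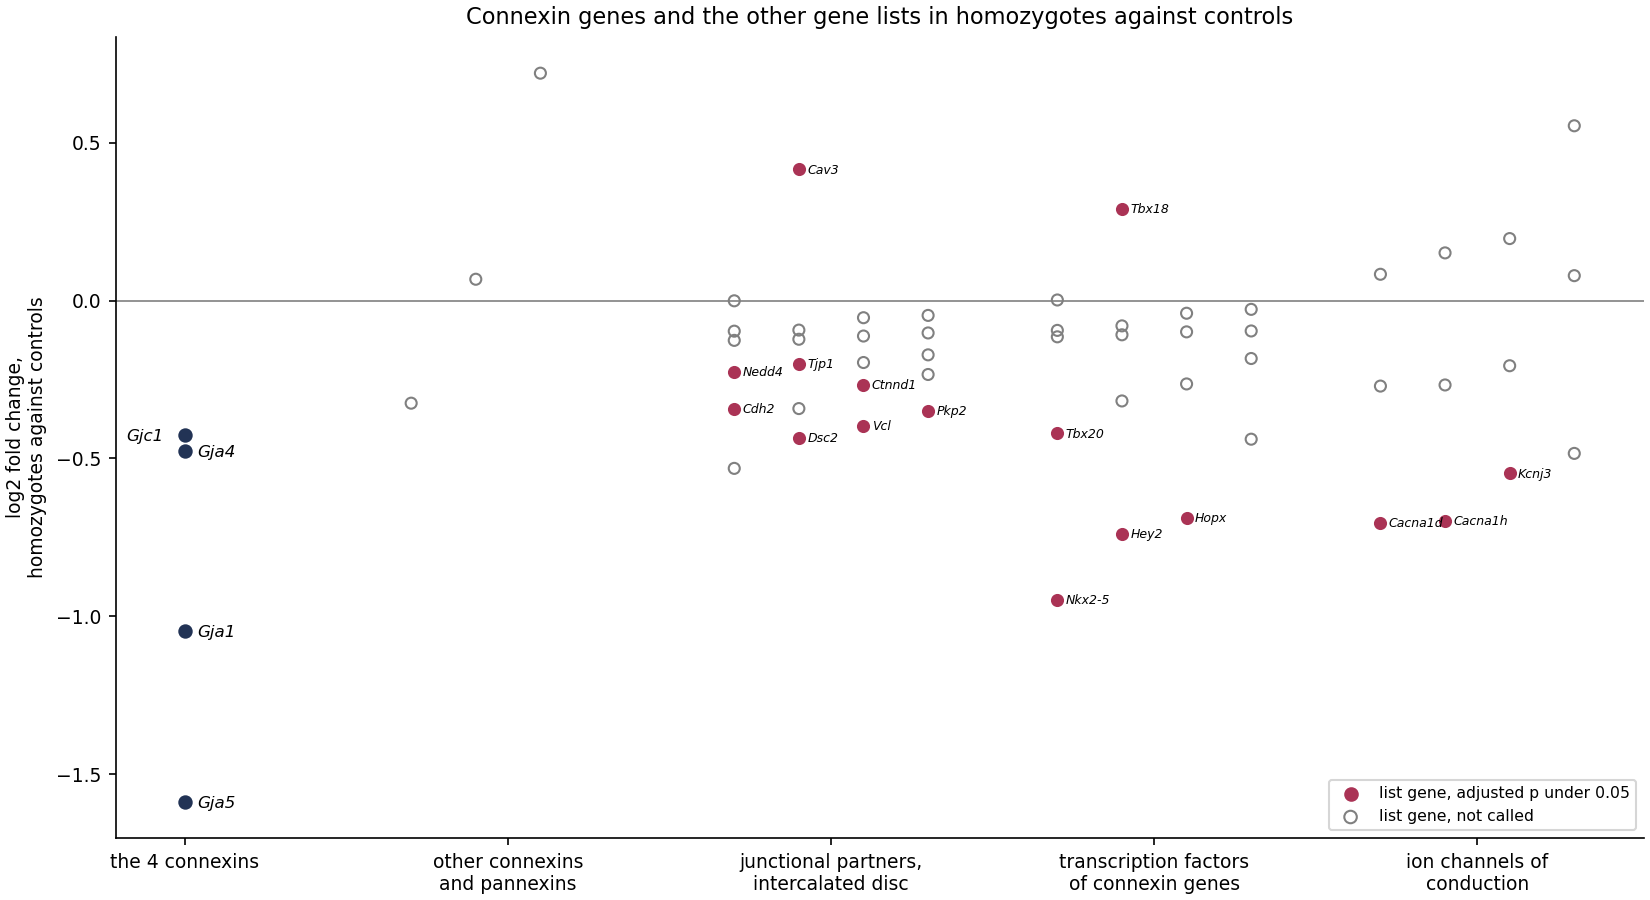
Log2 fold change of homozygotes against controls (vertical axis) for the 4 connexin genes and each measured gene of the 4 lists of other connexins, junctional partners, transcription factors and ion channels, with filled circles for list genes at an adjusted p under 0.05 and open circles for the rest. *Gja5* (-1.59) and *Gja1* (-1.05) lie lower than every gene of these 4 lists, the lowest of which is *Nkx2-5* (-0.95), while *Gjc1* (-0.43) and *Gja4* (-0.48) lie within their range.

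In whole hearts, fewer cells of a type and less RNA per cell cannot be told apart, so the markers of the cells that use each connexin are given beside the members. The 8 cardiomyocyte markers summed to 16155 to 18600 in controls, 18505 to 21231 in heterozygotes and 15144 to 17984 in homozygotes. In homozygotes against controls, where 8.03% of all genes fell, 1 of the 8 fell, the calcium release channel gene *Ryr2*. Against heterozygotes 3 of the 8 fell (6.7% of all genes), namely *Ryr2* (-1.03), the beta myosin heavy chain gene *Myh7* (-0.61) and the alpha myosin heavy chain gene *Myh6* (-0.59), with limma adjusted p values of 0.000962, 0.0172 and 0.0222. Per 1000 units of this sum, *Gja1* was 8.63 to 9.12 in controls, 8.47 to 9.98 in heterozygotes and 4.41 to 5.02 in homozygotes. *Gja5* was 6.46 to 8.96, 6.61 to 7.46 and 2.19 to 3.45 on the same scale, and *Gjc1* 3.29 to 3.89, 2.69 to 3.71 and 2.59 to 3.14. Relative to the cardiomyocyte markers, homozygote libraries were below both other groups for *Gja1* and *Gja5*, while for *Gjc1* they were below the controls and overlapped with the heterozygotes.

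The regional myocardial lists are read against the 8.03% of all genes that were lower and 7.19% that were higher. In homozygotes against controls, 1 of 5 trabecular markers (*Nppa*) and 2 of 5 compact and ventricular markers (*Hey2*, *Irx4*) fell, 1 of 4 measured atrial markers rose (*Myl4*), and 1 of 6 markers of the atrioventricular canal and sinus venosus fell (*Bmp2*). Against heterozygotes, where 6.7% of all genes fell and 6.87% rose, 1, 3, 1 and 3 markers of these lists fell and 0 rose. The trabecular sum was 1029 to 1178 in controls and 785 to 1033 in homozygotes, and was lowest in homozygote library 3. The part of this list in the values of *Gja5* was not tested.

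The 11 markers of endothelium and endocardium summed to 1357 to 1504 in controls, 1315 to 1351 in heterozygotes and 1145 to 1363 in homozygotes. In homozygotes against controls, where 8.03% of all genes fell and 7.19% rose, *Kdr*, *Flt1* and *Npr3* fell, *Emcn* rose, and *Pecam1*, *Cdh5*, *Tek* and *Tie1* did not pass the test. Of 6 arterial endothelial markers 1 rose, *Sox17*, and 0 fell, with sums of 337 to 350.3 in controls and 281 to 321 in homozygotes. Against heterozygotes, where 6.7% of all genes fell and 6.87% rose, 1 endothelial marker fell, *Kdr*, and 1 arterial marker rose, *Sox17*. *Gja4* was 19.8 to 22.6 per 1000 units of the endothelial sum in controls, 21.7 to 23.4 in heterozygotes and 15.5 to 18.8 in homozygotes. Per 1000 units of the arterial sum it was 79.0 to 91.2, 82.3 to 93.9 and 57.0 to 77.4. The Cx37 gene was thus also lower relative to both endothelial lists, by a narrow margin.

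Other cell types moved with the homozygous genotype. Against controls, where 7.19% of all genes rose, all 7 erythroid markers rose, with sums of 28320 to 40272 in controls, 22601 to 37865 in heterozygotes and 49757 to 65560 in homozygotes, the highest in homozygote library 3. Of 7 epicardial markers 5 rose, with sums of 475 to 534 in controls, 504 to 529 in heterozygotes and 654 to 716 in homozygotes. Of 6 cushion mesenchyme markers 1 fell, *Postn*, where 8.03% of all genes fell. The same counts were called against heterozygotes, with 7 erythroid and 5 epicardial markers higher and 1 cushion marker lower (6.87% of all genes higher and 6.7% lower). None of 4 measured macrophage markers or 4 measured liver and endoderm markers was called by limma in any comparison. At an unadjusted p under 0.05 there were 0 and 1 of them in homozygotes against controls (29.6% of all genes) and 1 and 1 against heterozygotes. In heterozygotes against controls there were 1 and 3 (7.37% of all genes). No neural crest marker was in the table. The liver and endoderm sum was 663 in control library 1 and 6.09 to 68.5 in the other 8 libraries. The part of the erythroid and epicardial values in the connexin values was not tested.

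The 2 nearest measured genes on each side of each member, by the distance between start sites, were examined because the deleted factor is known for its role in local chromatin structure. Of these 16 genes, 1 passed the test in homozygotes against controls, a share below the 15.2% of all genes, namely *Acp6*, a lysophosphatidic acid phosphatase gene that starts 254 kb from *Gja5*. *Acp6* had 30.7, 27.8 and 29.2 in controls, 35.5, 36.3 and 37.7 in heterozygotes and 88.7, 81.7 and 63.3 in homozygotes. Its homozygote libraries lay above all others, in the opposite direction to *Gja5*, and its heterozygote libraries lay above all controls. Homozygotes exceeded controls by 1.39 on the log2 scale (standard error 0.11, limma adjusted p = 3.35e-06) and heterozygotes by 1.07 (limma adjusted p = 4.78e-05), while heterozygotes and controls differed by 0.32 (limma adjusted p = 0.489).

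*Gpr89*, whose start lies 0.653 kb from that of *Gja5* and whose exons overlap it on the opposite strand, differed by 0.11 (limma adjusted p = 0.496). *Polr3c* (0.13) and *Rnf115* (0.24, limma adjusted p = 0.0511) on the other side of *Gja5* did not pass. Around *Gja1*, *D630037F22Rik* (-0.35), *Msl3l2* (-0.26), *Hsf2* (-0.08) and *Serinc1* (-0.03) did not pass, the closest of them at 149 kb. Around *Gja4*, the same held for *BC003266* (0.07), *Dlgap3* (0.59), *Zscan20* (-0.28) and *Phc2* (0.04), and around *Gjc1* for *Adam11* (0.39), *Ccdc43* (0.10), *Eftud2* (0.02) and *Kif18b* (0.21).

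**Figure D5:**
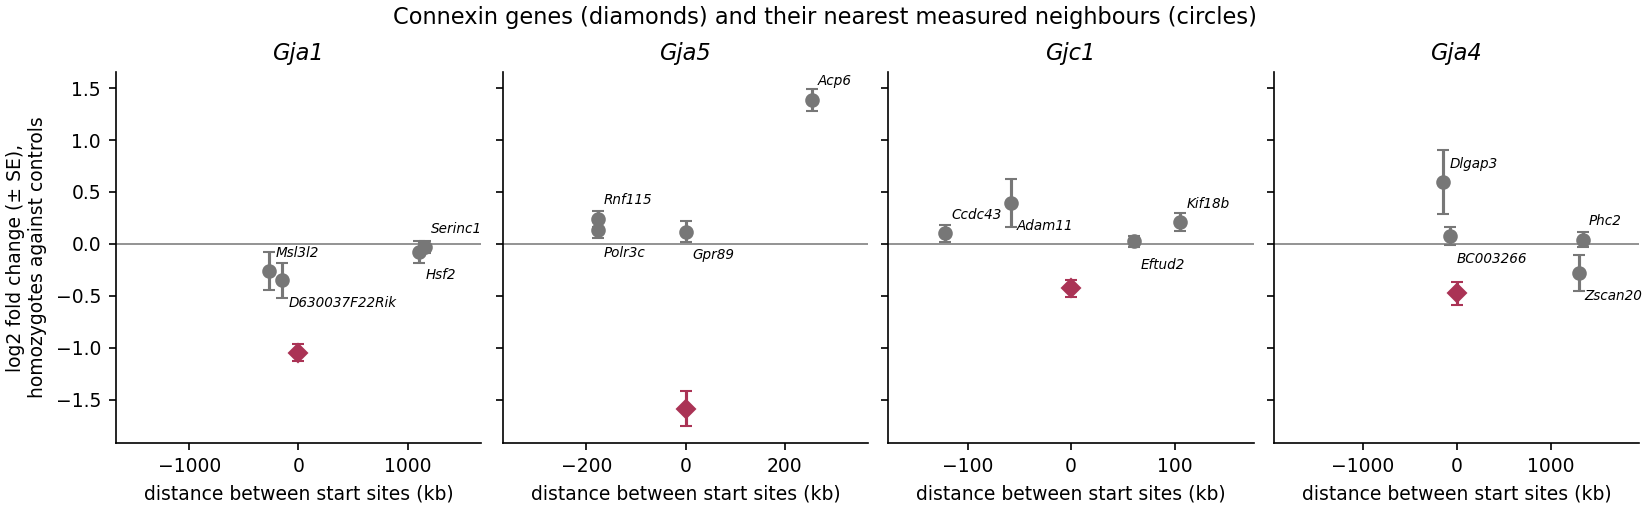
Log2 fold change of homozygotes against controls (vertical axis, bars of 1 standard error) for each connexin gene (diamond at 0) and its nearest measured neighbors (circles), by the distance between start sites in kb. *Acp6*, 254 kb from *Gja5*, stands at 1.39 and the other 15 neighbors between -0.35 and 0.59.

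The genes whose log2 values were most alike to each member over the 9 libraries were found by Pearson's r among the 9846 genes that averaged 10 or more. The points share 3 genotypes, and r is given as a description only. For *Gja1* these were *S1pr3*, a sphingosine phosphate receptor gene (r = 0.993), *Tnni2*, the fast skeletal troponin I gene (0.991), *Got2*, a mitochondrial aminotransferase gene (0.990), and *Irx4*, a ventricular homeobox gene (0.989). All 4 had heterozygote means above the control means as *Gja1* did. For *Gja5* they were *Tgfbr3*, a TGF-beta coreceptor gene (0.994), *Ephb3*, an ephrin receptor gene (0.991), *Hspa12a* (0.990) and *Gaa*, the lysosomal alpha-glucosidase gene (0.990). For *Gjc1* they were *Pfkfb3*, a glycolytic regulator gene (0.983), *Zfp516* (0.977), *Dzip1l* (0.970) and *Slco3a1* (0.964), and for *Gja4* *BC031353* (0.977), *Prrc2a* (0.971), *Prr12* (0.970) and *Parp1*, a poly(ADP-ribose) polymerase gene (0.964). No gene was among the 4 closest to more than 1 member.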

How the data were processed

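RNA-seq was performed by the authors on pools of 6 hearts with polyA RNA and a TruSeq kit on a GAIIx instrument, using the transcriptome of NCBIM37. The submitters' processing notes name CASAVA 1.8, cutadapt 1.6.1, RSEM 1.20, Bowtie2 0.12.7 and limma without their roles. The authors deposited 1 table of normalized signal values for 14011 genes, each equal to a whole number of reads plus 0.5 divided by an effective library size on the CPM scale, which was the product of the read total and edgeR's TMM factor (recovered within 0.01 of a whole read in 100% of values). Every gene reached 1 in 3 or more libraries, and genes below that were not in the table.

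Columns were assigned to genotypes by name and by group averages that the authors printed, which matched the means of the columns for 1998 of 1998 genes (controls, homozygotes) and 787 of 787 (heterozygotes). Control and heterozygote columns could not be matched to single samples and are numbered by their names. Values were analyzed as log2(value + 0.5), so fold changes of low genes are understated, with limma 3.58.1 in R 4.3.3, with 9 libraries in 1 fit, an intensity trend in the variance and Benjamini-Hochberg adjusted p-values over the whole table; called means an adjusted p under 0.05. Pools are the replicates, and libraries of a genotype differed beyond sampling noise (3.33 to 7.35 chi-square units per degree of freedom). Annotation came from GENCODE M1, which matched 13987 genes, near-identical transcripts from BLAST 2.17.0 and promoters from RefSeq. Tables were prepared with Python 3.11.15. Methods were tested on simulated data.

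The members, gene lists and tests were chosen with earlier results of these data known. Named genes were the members, *Ctcf*, the other connexins and pannexins, the 4 called genes of each other list with the largest change against controls, *Nkx2-5*, *Tbx5*, *Tbx2*, *Tbx3*, *Irx3*, *Hopx* and *Tjp1*, the 2 nearest neighbors on each side and the 4 genes most alike to each member. Alternatives were other pseudocounts, a filter, the compared groups alone, quantile normalization, limma without the trend, edgeR 4.0.16, voom and DESeq2 1.42.0 on recovered reads, removal of the length trend, a replicate block and each library left out. Of the genes listed, 2 are not reported here and were left out of the list counts.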

Additional observations from a re-analysis of the deposited data

How the results depend on the processing

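In homozygotes against controls and against heterozygotes, the 4 members, whose values there are a description, were lower under all 20 alternatives. Some of these cannot change a log2 difference, so the direction there was fixed in advance. They are the filter, the compared groups alone, limma without the trend, the replicate block and the omission of a library outside the comparison. *Gja4* was -0.43 against controls without control library 3 and -0.45 against heterozygotes without heterozygote library 2. Leaving out each library in turn, *Gja1* ranged from -1.10 to -0.96, *Gja5* from -1.75 to -1.38, *Gjc1* from -0.49 to -0.36 and *Gja4* from -0.59 to -0.36 against controls, and *Gja4* from -0.58 to -0.35 against heterozygotes.

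In heterozygotes against controls no member passed the threshold under any alternative, and values near 0 changed sign. *Gjc1* was 0.00277 with quantile normalization, 0.00223 with edgeR, 0.000542 with voom and 0.000412 with DESeq2, and *Gja4* was 0.00909 with voom. Leaving out each library, *Gjc1* ranged from -0.0682 to 0.0618, *Gja4* from -0.0721 to 0.0447, *Gja5* from -0.0237 to 0.237 and *Gja1* from 0.19 to 0.29. Against controls in homozygotes, *Irx3* ranged from -0.141 to 0.0485 and *Panx1* from -0.0544 to 0.151.

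Genes called in homozygotes against controls numbered 2133, 1196 without limma's trend and 1049 (without control library 3) to 2084 with a library left out, 1267 of them without homozygote library 3. Against heterozygotes they numbered 1901, 1063 without the trend and 1023 (without homozygote library 3) to 1859, with 1257 without heterozygote library 2 and 1223 without heterozygote library 3. For heterozygotes against controls they numbered 20, 10 without the trend, 40 with DESeq2 and 13 (without heterozygote library 3) to 25. edgeR on the recovered reads called 2212, 1903 and 21 genes in the 3 comparisons. The cause of these differences was not tested. Without the trend, 2 of 22 junctional partners and 2 of 12 ion channels were called against controls, where 8.54% of all genes were called. Against heterozygotes 1 of each list was called without the trend, where 1063 of 14011 genes were called. With the length trend removed, 4 of 22 partners were called against controls, where 10.9% of all genes were called. These were 1520 genes, 804 higher and 716 lower, against 1008 and 1125 with the trend kept.

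The numbers that end the column names did not pair the libraries, since correlations of same-numbered deviations ranged from -0.143 to 0.128. With a replicate block by these numbers 1756, 1553 and 15 genes were called in the 3 comparisons. Every genotype holds each of these numbers, so the block cannot change a group difference and can change only its test. *Tjp1* (limma adjusted p = 0.0565) and *Kcnj3* (limma adjusted p = 0.0544) were not called against controls with the block.

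Levels per kilobase by the longest transcript were 36.9, 38.7 and 12.3 for *Gja5* and 18.4, 18.4 and 13.7 for *Gjc1* in controls, heterozygotes and homozygotes. At 106 to 299 reads, *Gja4* was the member with the least depth.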
